A study of Mus musculus with 31 samples.

Results

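Neuronal immediate early genes are genes that a neuron transcribes within minutes of strong synaptic input, through transcription factors already present in the cell. The 10 described here are Fos, Fosb, Junb, Egr1, Egr2, Arc, Npas4, Nr4a1, Dusp1 and Bdnf, chosen as the probes whose gene name in the array files is one of these symbols, of 25281 genes that passed the filters. Each was measured by 1 probe and lay well above background on all 31 arrays. Whole brains came from 31 female C57BL/6 mice, aged 6 weeks, 1 array per mouse. Oleic acid (1.2 µl per g of body weight in 200 µl), which injures the lung acutely, was injected into the tail vein of 17 mice, and 200 µl of physiological serum into that of 14. At 1, 1.5, 3, 4, 18 and 24 h after injection the oleic acid groups held 3, 3, 3, 3, 2 and 3 mice, and the serum groups 3, 3, 2, 2, 2 and 2. Every mouse of both treatments was anaesthetised with ketamine and xylazine for the injection, and no uninjected or unanaesthetised mouse was analysed here, so the serum groups carry the anaesthetic, the injection and the handling as well.

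In neurons, calcium entry through glutamate receptors and voltage-gated channels activates kinases that phosphorylate CREB and the partners of serum response factor, and these start transcription of the early genes. The first products are transcription factors (the Fos, Jun, Egr and Nr4a proteins and Npas4), a phosphatase that switches the kinases off again (Dusp1), and proteins that act at synapses (Arc and Bdnf). Their transcripts are short-lived, so their level in brain tissue is widely used as a record of recent neuronal activity, and stress, arousal and anaesthesia are known to move it. In RNA from a whole brain, fewer active cells and less RNA per active cell cannot be told apart. Nor can RNA from neurons be told from that of other cells.

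CREB and serum response factor bind short sequences near transcription starts. How such sequences relate to the expression values that follow was not tested. The 250 bases before the start of 5 of the genes are shown. They are taken from RefSeq on GRCm38.p6 and written 5′ to 3′ on the gene's own strand. Npas4 lies at chr19:4989972-4990221 on the minus strand, Fos at chr12:85473640-85473889 on the plus strand and Egr2 at chr10:67537680-67537929 on the plus strand. Nr4a1 lies at chr15:101266596-101266845 on the plus strand and Dusp1 at chr17:26508473-26508722 on the minus strand. Capitals mark the cAMP response element TGACGTCA and its core TGACG, the CArG box of serum response factor, and the Egr site GCGNGGGCG, each searched on both strands.
Npas4: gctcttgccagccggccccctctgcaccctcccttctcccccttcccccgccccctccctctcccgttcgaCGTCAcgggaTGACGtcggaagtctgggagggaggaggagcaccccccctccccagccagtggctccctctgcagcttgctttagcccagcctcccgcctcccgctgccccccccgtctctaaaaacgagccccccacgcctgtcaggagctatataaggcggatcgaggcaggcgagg
Fos: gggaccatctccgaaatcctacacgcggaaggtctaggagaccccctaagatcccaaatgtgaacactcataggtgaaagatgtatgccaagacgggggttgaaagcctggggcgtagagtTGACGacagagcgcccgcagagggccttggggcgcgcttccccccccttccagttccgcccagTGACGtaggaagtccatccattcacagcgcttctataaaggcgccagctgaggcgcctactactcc
Egr2: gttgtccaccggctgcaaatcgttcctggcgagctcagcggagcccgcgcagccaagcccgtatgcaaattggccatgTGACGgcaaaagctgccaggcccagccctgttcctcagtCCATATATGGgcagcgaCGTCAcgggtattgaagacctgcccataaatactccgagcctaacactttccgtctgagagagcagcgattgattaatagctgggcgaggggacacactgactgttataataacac
Nr4a1: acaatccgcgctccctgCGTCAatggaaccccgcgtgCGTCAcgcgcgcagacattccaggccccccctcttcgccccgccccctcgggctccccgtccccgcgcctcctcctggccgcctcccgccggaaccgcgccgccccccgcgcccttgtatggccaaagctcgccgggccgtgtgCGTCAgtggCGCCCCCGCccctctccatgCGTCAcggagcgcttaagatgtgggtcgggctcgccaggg
Dusp1: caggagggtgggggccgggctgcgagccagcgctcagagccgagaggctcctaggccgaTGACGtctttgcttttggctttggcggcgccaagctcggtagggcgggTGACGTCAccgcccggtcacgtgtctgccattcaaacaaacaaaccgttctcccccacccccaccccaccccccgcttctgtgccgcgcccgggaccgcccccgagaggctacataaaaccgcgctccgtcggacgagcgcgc
The full element TGACGTCA was found in the Dusp1 window at position -143 (position -1 being the base before the start). Its core TGACG was found in all 5 windows shown, which are a selection. Of the windows not shown, those of Fosb and Junb and the Egr2 windows starting at bases 67537619 and 67537620 held the core as well. The Egr2 windows starting at 67535249 and 67537316 held none, nor did any Bdnf window except that starting at 109692186. Nr4a1 held the core at positions -233, -213, -69 and -40, all on the opposite strand and so written CGTCA, with an Egr site at -60, and Npas4 held it at -179 (opposite strand) and -169. In the window shown, which is 1 of its 5, Egr2 had a CArG box at -133. It lay between 2 copies of the core, at -172 and, on the opposite strand, -116. The windows searched, those of the 5 genes shown included, also took in the 50 bases after the start. Over all 32851 of them, 1.79% held TGACGTCA, 20.8% TGACG, which also counts every TGACGTCA, 1.63% a CArG box and 5.55% GCGNGGGCG. A match describes the letters of the window and does not say that a factor binds there. The array's own annotation, on mm9, places the Npas4 probe at chr19:4984356-4984415 and the Arc probe at chr15:74499592-74499651, both on the minus strand.

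On the 31 arrays 54.3% to 76.3% of spots were well above background and none was saturated. Neuronal markers were present throughout, Snap25 lying at log2 5.97 in the lowest brain, 6.39 in the median brain and 6.99 in the highest, each relative to the 75th percentile of its array. The cerebellar granule cell gene Gabra6 was not above background in 4 brains, oleic acid 1.5 h replicate 2, oleic acid 4 h replicate 3, serum 1 h replicate 1 and serum 4 h replicate 2. These were not the only brains low in cerebellar signal. The summed signal of the 5 cerebellar markers was also only 4.76 times the array's 75th percentile in a serum 1.5 h brain and 7.36 times in a serum 18 h brain. The anterior pituitary hormone gene Prl was high in 3 others, oleic acid 24 h replicates 1 and 3 and serum 24 h replicate 2. The arrays lay on 5 slides that follow time: all 1 h brains were on 1 slide, the oleic acid brains of 18 h were on another slide than the serum brains of 18 h, and no slide held both early and late oleic acid brains. Slide and treatment at 18 h therefore cannot be told apart. At 1.5 h only 1 slide held mice of both treatments, 1 of each, so slide and treatment were largely confounded there too.

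The 10 genes varied widely between mice that had received the same injection and the same time. Values are log2 signal relative to the array's 75th percentile, and each is compared only with the same gene in other brains. Arc, whose mRNA is carried into dendrites and whose protein helps remove glutamate receptors from synapses, lay at 2.19 in the lowest of the 31 brains, 3.29 in the median and 5.43 in the highest, a 9.47-fold range. Egr2, a zinc finger transcription factor also known as Krox20, lay at -2.61, -1.15 and 0.26, a 7.29-fold range, and Npas4, a neuron-specific factor induced by calcium, at 0.25, 1.42 and 2.91, a 6.34-fold range. Fos, the partner of Jun proteins in the AP-1 factor, lay at -0.83, 0.14 and 1.24, a 4.2-fold range. Mice of 1 group could lie far apart: at 1.5 h after oleic acid, Egr2 was -0.46, -1.88 and 0.18 in the 3 mice, and at 18 h after serum, Arc was 5.43 and 3.40 in the 2 mice.

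**Figure D1:**
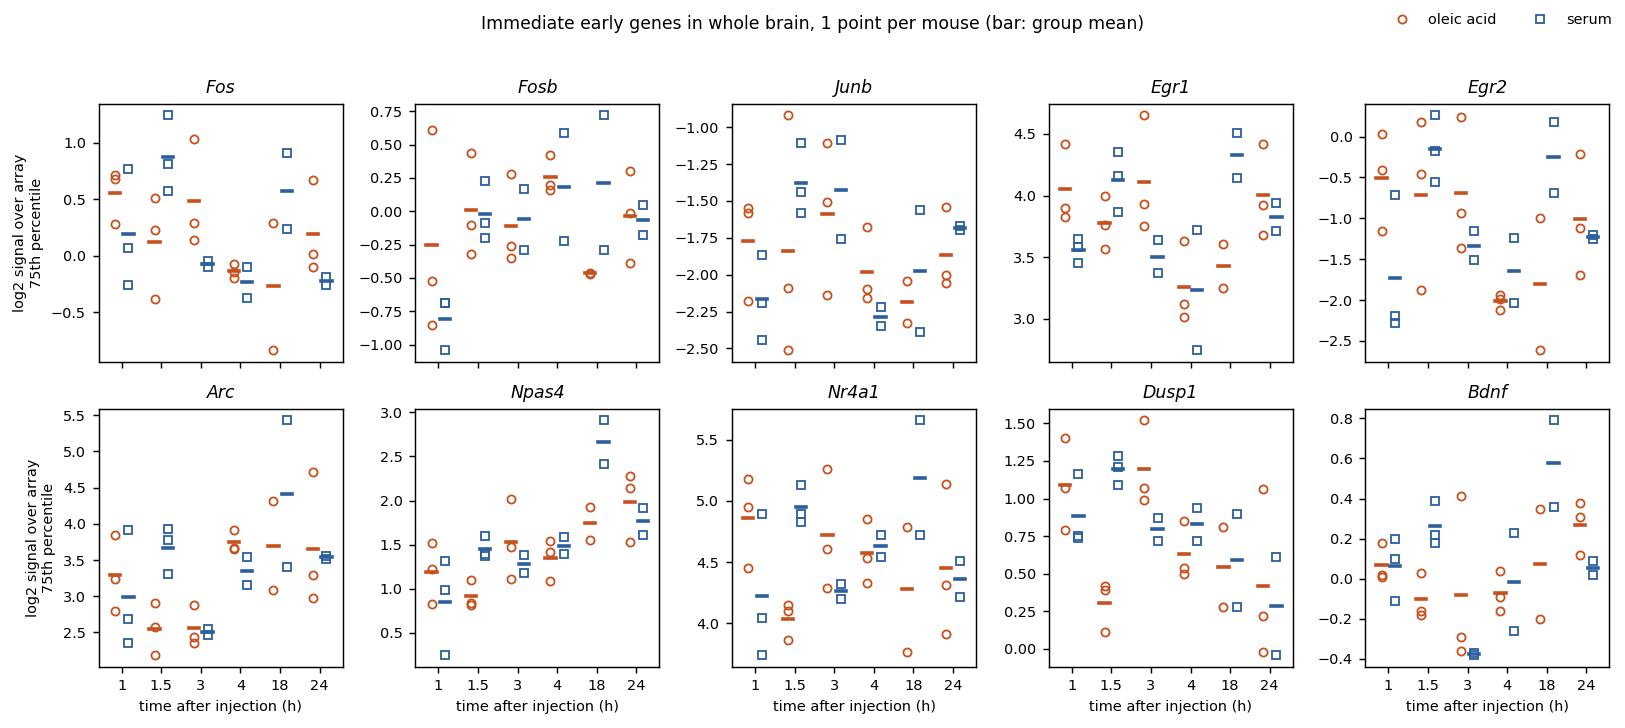
Each point is 1 mouse and each bar a group mean, with log2 signal over the array's 75th percentile on the vertical axes and hours after injection, evenly spaced and not to scale, on the horizontal axes. Mice of the same group often lie far apart, as for Arc 18 h after serum (5.43 and 3.40), and Npas4 is the 1 gene whose late serum mice all lie above the early ones.

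The pooled SD between mice of a group placed 6 of the 10 genes above the 90th percentile of the 20561 genes that were above background on every array. Egr2 had an SD of 0.70 (percentile 99.2), Arc 0.61 (98.5), the nuclear receptor gene Nr4a1 0.43 (92.6), Junb 0.42 (91.7), Fosb 0.41 (90.8) and Fos 0.40 (90.1), against a median of 0.2 over all those genes. Egr1 (82.5), Npas4 (82.3) and Dusp1 (79.6) came next, and Bdnf, the neurotrophin, stood near the middle at an SD of 0.22 (percentile 56.4). For Fos, which had 10 spots on each array, the SD between spots of 1 array was 0.0277 to 0.198 with a median of 0.0658.

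**Figure D2:**
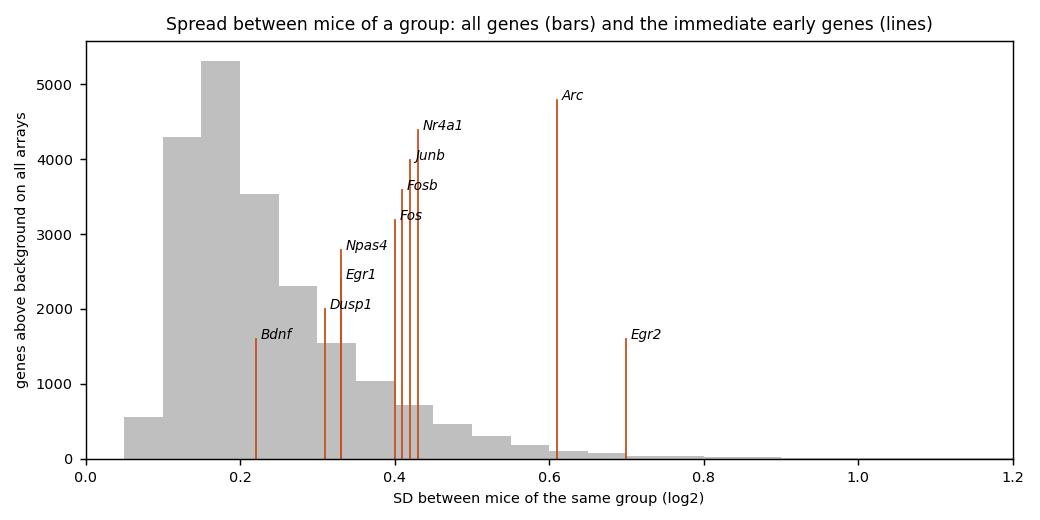
The grey bars count genes by the pooled SD between mice of the same group (log2, horizontal axis), and each line marks 1 of the 10 early genes, its height having no meaning; genes with an SD past the right edge are not drawn. Egr2 (0.70) and Arc (0.61) lie far into the right tail, and Bdnf (0.22) lies close to the median of 0.2.

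The genes moved together from mouse to mouse. Over the 31 brains the 45 pairs had Pearson correlations of 0.00 to 0.89 with a median of 0.46. Of these, 29 had a permutation p under 0.05 after Benjamini-Hochberg adjustment over the 45. The permutations shuffled all 31 brains freely, so these p-values take no account of group or slide. After each group's mean was subtracted, so that treatment and time no longer contribute, all 45 were above 0, from 0.17 to 0.95 with a median of 0.61. Deviations from slide means gave 0.19 to 0.92 with a median of 0.56. The mean over the 45 pairs was 0.45 for the values, 0.60 within groups and 0.56 within slides, against 0.026, 0.022 and 0.019 for pairs drawn from all genes. It was 0.40, 0.57 and 0.51 without serum 18 h replicate 1, the brain with the highest mean level. All pairs share the same RNA samples, arrays and scaling, so the 45 are not independent of each other.

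The closest pair was Fos and Egr2, with r = 0.89 and Spearman's rho = 0.88 over 31 mice (permutation p = 1e-05 for each, the smallest that 100000 permutations can give; 0.00011 and 0.00022 after adjustment over the 45 pairs). Their r was 0.87 without the 2 mice farthest from the median, 0.95 within groups and 0.92 within slides. Arc and Nr4a1 had r = 0.71 over the values and 0.88 within groups. Npas4 and Dusp1 had r = 0.00 over the values and 0.51 within groups, and Junb and Bdnf 0.02 and 0.17.

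**Figure D3:**
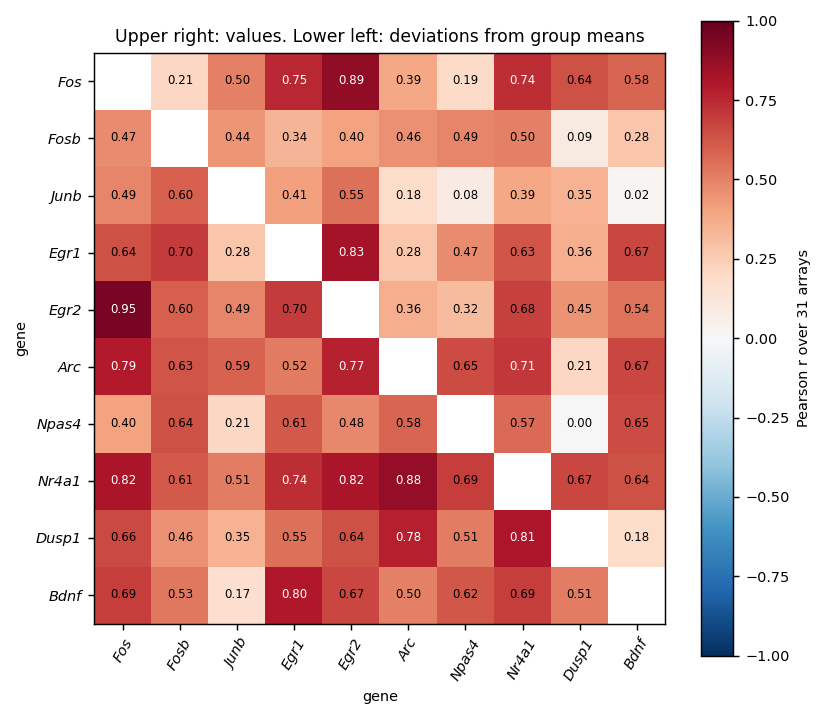
Each square gives the Pearson correlation of 2 of the genes over 31 arrays, from the log2 values above the diagonal and from deviations from the group means below it; the colour scale runs from -1 to 1. Within groups every pair is positive (0.17 to 0.95), and Fos with Egr2 is the highest on both sides (0.89 and 0.95).

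The same few brains were high or low for most of the genes. Expressed as the mean of the genes' z-scores, serum 18 h replicate 1 stood highest at 1.81, followed by oleic acid 3 h replicate 3 at 1.2, oleic acid 24 h replicate 2 at 1.16, serum 1.5 h replicate 2 at 1.08 and oleic acid 1 h replicate 3 at 1.02. The lowest were serum 1 h replicate 3 at -1.13, oleic acid 18 h replicate 1 at -1.11 and oleic acid 1.5 h replicate 2 at -1.0. Oleic acid 24 h replicate 2 was among the 10 highest brains for 10 of the 10 genes, while oleic acid 1.5 h replicate 2, a brain without Gabra6 signal, was among the 10 lowest for 10 of 10. Both treatments supplied high and low brains.

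**Figure D4:**
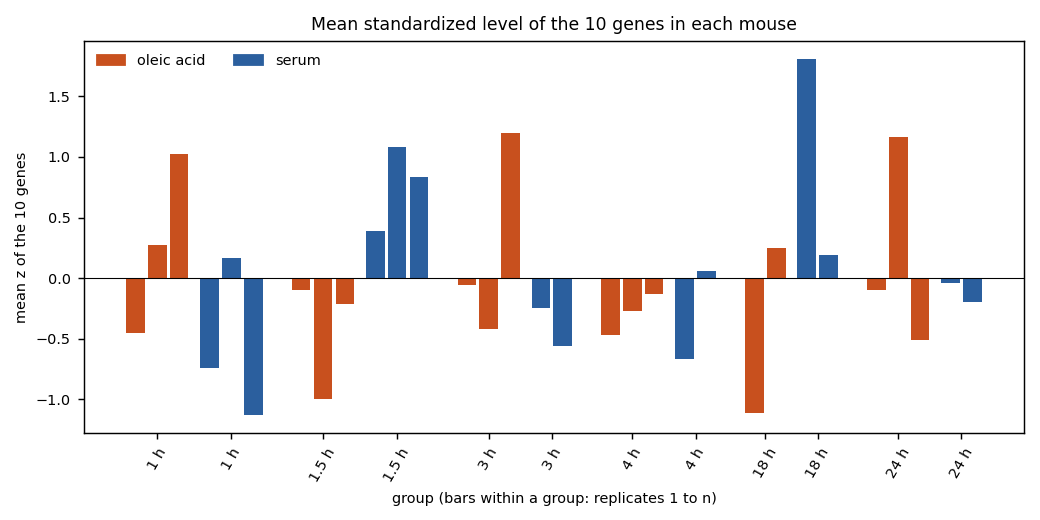
Each bar is 1 mouse, in groups by treatment and time, and gives the mean over the 10 genes of the gene's z-score across the 31 arrays (no unit). The highest bar is serum 18 h replicate 1 (1.81) and the lowest serum 1 h replicate 3 (-1.13), and bars of 1 group often point in opposite directions.

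Across the 31 brains the correlations of this mean level with the mean z-score of the markers of 14 cell types, regions and organs ran from r = -0.33 for oligodendrocytes to 0.47 for the striatum, given as descriptions. They were 0.05 for neurons, 0.35 for microglia, 0.44 for endothelium (0.21 without the 2 farthest mice) and -0.13 for the cerebellum (-0.38 without the 2 farthest mice). For the hypothalamus the correlation was 0.01, but 0.50 without the 2 farthest mice and -0.16 within groups. Within groups the striatal value was 0.53, the erythroid 0.44, the neuronal 0.41, the endothelial 0.36 and the cerebellar -0.24. With the array's percentage of spots above background the mean level had r = -0.35, and with its 75th percentile -0.17 (-0.42 within groups). The part of tissue makeup in the spread between mice was not tested beyond these values.

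No oleic acid minus serum difference passed the test for any of the 10 genes at any time, for the mean of the 6 times, or for a difference between times (limma, Benjamini-Hochberg over 25281 genes, threshold 0.05). Over all genes 0% passed in these comparisons except at 4 h, where 0.00396% did. At an unadjusted p under 0.05 the genes counted 1, 5, 1, 0, 6 and 0 at 1, 1.5, 3, 4, 18 and 24 h, beside a background of 4.86%, 5.28%, 4.84%, 3.04%, 7.27% and 6.60% of all genes. Averaged over the 6 times the differences ran from -0.16 to 0.01, with 9 of 10 below 0, beside 52.5% of all genes. The median difference of all genes, against which the medians below are read, was 0.002, -0.011, 0.022, 0.008, -0.04 and -0.044 at the 6 times. For 5 of the 10 genes the groups failed to overlap in opposite directions at different times, beside 25.9% of all genes.

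At 1.5 h, 9 of the 10 genes were lower after oleic acid, beside 52.2% of all genes, with a median difference of -0.55. Dusp1, the phosphatase that inactivates MAP kinases, lay at 0.11, 0.42 and 0.39 in oleic acid mice, against 1.09, 1.28 and 1.21 in serum mice. Its groups did not overlap, and the difference was -0.89 ± 0.25 (SE; adjusted p = 0.661, limma). Nr4a1, an orphan nuclear receptor, lay at 4.15, 3.86 and 4.10 in oleic acid mice, against 4.89, 5.13 and 4.83 in serum mice. This was a difference of -0.91 ± 0.34 (adjusted p = 0.816, limma), again without overlap. Fos, Arc, Npas4 and Bdnf also had oleic acid groups wholly below the serum groups, making 6 of 10, beside 6.31% of all genes.

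Other transcripts differed between the same groups at 1.5 h. The 5 cerebellar markers were all lower after oleic acid (median -1.03), their summed signal being 3.21 to 40.1 times the array's 75th percentile in oleic acid mice and 4.76 to 62.6 in serum mice. The 3 erythroid markers were lower too (median -0.44), and the 5 neuron markers had a median of 0.02. Without oleic acid 1.5 h replicate 2, the brain without Gabra6 signal, the median of the 10 genes was -0.42. Only 1 slide held mice of both treatments at this time, 1 of each, so slide and treatment were largely confounded. On that slide the median was -0.48, with 8 genes lower after oleic acid and 2 (Fosb and Junb) higher. The part of these markers in the differences was not tested.

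The serum mice of 1.5 h also stood above the serum mice of 1 h. All 10 genes were higher at 1.5 h, with a median difference of 0.69, beside 48.5% of all genes, and none passed the test, as for all genes (0%), although 7 had an unadjusted p under 0.05 beside 3.74% of all genes. Egr2 lay at -0.55, 0.26 and -0.17 at 1.5 h, against -2.28, -0.72 and -2.20 at 1 h. That is a difference of 1.58 ± 0.54 (adjusted p = 0.997, limma). For 5 genes the serum groups did not overlap, beside 3.80% of all genes. In the slide that held all 1 h brains and 2 of the serum 1.5 h brains, the median was 0.65.

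At 18 h all 10 genes were lower after oleic acid, with a median of -0.78, beside 54.9% of all genes. Egr2 lay at -2.61 and -1.0 in oleic acid mice, against 0.18 and -0.69 in serum mice, a difference of -1.55 ± 0.66. Nr4a1 lay at 3.76 and 4.79 in oleic acid mice, against 5.66 and 4.72 in serum mice, so that 1 oleic acid brain was above 1 serum brain. Bdnf lay at -0.20 and 0.35 in oleic acid mice, against 0.79 and 0.36 in serum mice. The groups did not overlap for 5 of the 10 genes, beside 29.5% of all genes in a comparison of 2 mice with 2.

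The 18 h medians rest strongly on single brains: the median was -0.34 without oleic acid 18 h replicate 1 and -0.36 without serum 18 h replicate 1, against -1.18 without serum 18 h replicate 2. With slide as a fixed block it was -0.40, and 7 of 10 genes were lower. The 5 cerebellar markers were all higher after oleic acid at this time (median 2.10; summed signal 70.5 to 82.2 in oleic acid mice and 7.36 to 65.5 in serum mice), the 3 erythroid markers were lower (median -0.89), and the 5 neuron markers had a median of 0.02. Their part in the differences was not tested, and slide cannot be told apart from treatment here.

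At each of the remaining times at most 1 gene had an unadjusted p under 0.05. The median differences were 0.38 at 1 h (10 of 10 higher, beside 50.4% of all genes), 0.35 at 3 h (8 of 10, beside 53.7%), -0.02 at 4 h (5 of 10, beside 51.4%) and 0.15 at 24 h (9 of 10, beside 42.9%). The oleic acid mice were all above the serum mice for 1 gene at 1 h (beside 4.11% of all genes), 4 at 3 h (beside 10.0%), 2 at 4 h (beside 9.47%) and 2 at 24 h (beside 12.3%). At 1 h Egr2 lay at -1.15, -0.41 and 0.03 in oleic acid mice, against -2.28, -0.72 and -2.20 in serum mice, a difference of 1.22 ± 0.54 with overlapping groups. At 1 h the 3 liver markers were lower after oleic acid (summed signal 0.0653 to 0.652 in oleic acid mice and 1.24 to 16.2 in serum mice), and so were the 3 erythroid markers (median -1.45). Leaving out single brains moved these medians as well: 1 h to 0.24 without oleic acid replicate 3 and to 0.58 without oleic acid replicate 1 or without serum replicate 2, 3 h to 0.12 without oleic acid replicate 3 (and to 0.12 with slide as a fixed block), 4 h to -0.20 without serum replicate 1 and 0.20 without serum replicate 2, and 24 h to -0.16 without oleic acid replicate 2, 0.36 without oleic acid replicate 3 and 0.23 without serum replicate 1. Without the 3 brains high in Prl the 24 h median was 0.56.

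**Figure D5:**
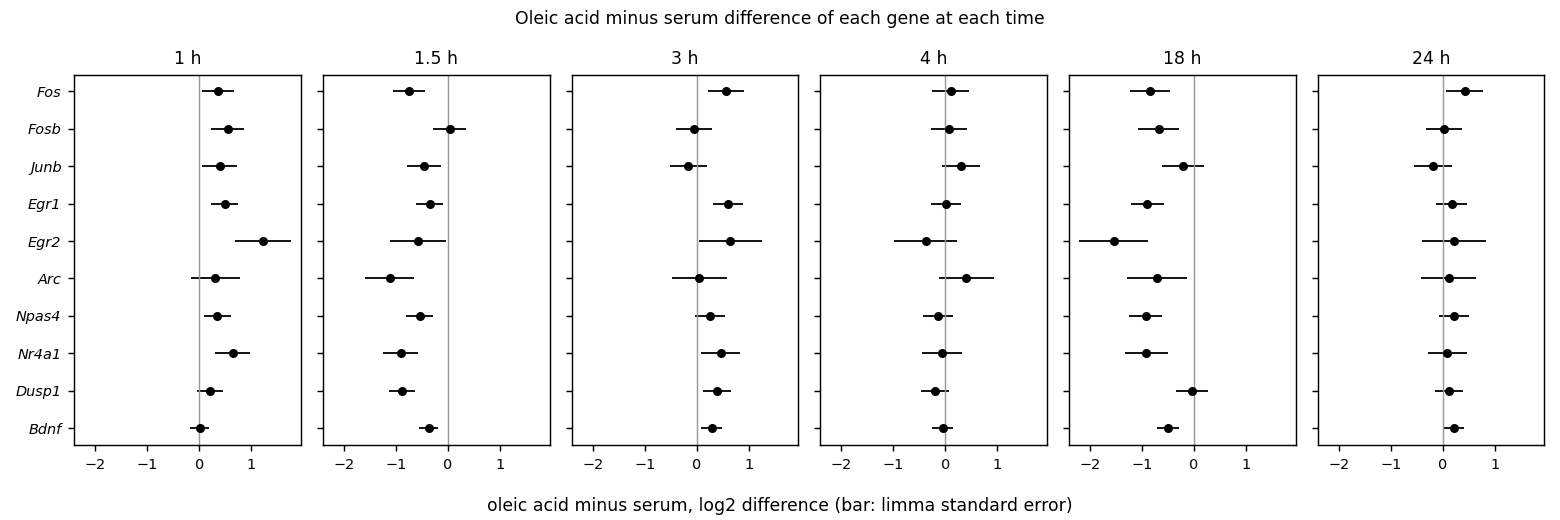
Points give the oleic acid minus serum difference of each gene at each time on the log2 scale, and bars give 1 limma standard error to each side; the vertical line is at 0. The points lie below 0 for 9 of 10 genes at 1.5 h and 10 of 10 at 18 h and above it for 10 of 10 at 1 h, and none passed the adjusted test.

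Time after injection was tested within each treatment. Npas4 was the 1 gene of the 10 to pass any of these tests, and it did so in serum mice (any difference between times, F = 8.46, adjusted p = 0.0119, limma), where 10.4% of all genes passed. At an unadjusted p under 0.05 the genes counted 4 of 10 in oleic acid mice, beside 26.3% of all genes, and 5 of 10 in serum mice, beside 34.6%. In serum mice it lay at 1.31, 0.99 and 0.25 at 1 h and 1.37, 1.60 and 1.39 at 1.5 h, then at 1.38 and 1.18 at 3 h and 1.39 and 1.59 at 4 h. It lay at 2.91 and 2.42 at 18 h and 1.61 and 1.92 at 24 h. All 4 late brains were thus above all 10 earlier ones, the lowest late value being 1.61 and the highest early value 1.60.

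Npas4 rose at 18 to 24 h over 1 to 1.5 h in serum mice by 1.06 ± 0.20, or 2.09-fold (adjusted p = 0.00629, limma), beside 2.54% of all genes that passed as higher. Over 3 to 4 h it rose by 0.83 ± 0.22, or 1.78-fold (adjusted p = 0.0392, limma), beside 1.80%. The groups did not overlap in either comparison, as for 3.64% and 2.78% of all genes in the same direction.

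In oleic acid mice Npas4 lay at 0.83, 1.22 and 1.52 at 1 h, 0.82, 1.1 and 0.84 at 1.5 h, 1.47, 1.11 and 2.02 at 3 h, 1.42, 1.09 and 1.54 at 4 h, 1.55 and 1.93 at 18 h, and 2.14, 2.28 and 1.53 at 24 h. The late brains were again all above those of 1 and 1.5 h, by 0.80 ± 0.19 on average (adjusted p = 0.0586, limma; 0.676% of all genes passed and 1.09% were higher without overlap), but overlapped those of 3 and 4 h (0.42 ± 0.19; adjusted p = 0.218, limma). The late minus early change of oleic acid mice minus that of serum mice was -0.26 ± 0.28 (adjusted p = 0.866, limma).

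The Npas4 calls depended on slide and on single brains. With slide as a fixed block the late minus early difference in serum mice was 0.79 with an adjusted p of 0.986 by limma, and with slide as a random block 1.03 with an adjusted p of 0.0759. Within the slide that held serum mice of 4 and 18 h, the 18 h brains were higher by 1.17 ± 0.32 (adjusted p = 0.0852, limma), and on the slide that held 1 serum mouse each of 1.5 and 24 h the later was higher by 0.53. Without serum 18 h replicate 1 the late minus early difference was 0.94 (adjusted p = 0.056, limma) and the F-test had an adjusted p of 0.0788. The late minus middle call was lost without any of 7 of the 8 serum mice in it, serum 18 h replicate 2 being the exception, at adjusted p-values up to 0.177 by limma.

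The summed signal of the 3 anterior pituitary markers was 1.15 to 390 times the array's 75th percentile in the oleic acid mice of 24 h and 1.96 to 401 in the serum mice of 24 h, against 1.18 to 2.35 in every other group, those of 18 h included. For 18 to 24 h against 1 to 1.5 h the cerebellar markers had median differences of 1.64 in oleic acid mice and 0.08 in serum mice, and the neuron markers -0.25 in oleic acid mice and -0.11 in serum mice. Without the 3 brains high in Prl, the serum difference of Npas4 was 0.99 (adjusted p = 0.0269, limma) over early mice and 0.75 (adjusted p = 0.119, limma) over the middle times. Without the 4 brains without Gabra6 signal these were 1.18 (adjusted p = 0.0126, limma) and 0.88 (adjusted p = 0.073, limma).

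For the other 9 genes no time comparison passed. In serum mice 9 of the 10 genes were higher at 18 to 24 h than at 3 to 4 h, beside 52.1% of all genes, with a median of 0.42, and 4 had an unadjusted p under 0.05, beside 17.9%. In oleic acid mice 4 of 10 were higher, beside 42.7%, and the median was -0.13. Within the slide that held serum mice of 4 and 18 h, 9 of 10 were higher at 18 h (median 0.70, beside 44.0% of all genes), 6 without overlap (beside 15.6%), but the median was 0.23 without serum 18 h replicate 1 and 1.09 without serum 18 h replicate 2. None of the 10 passed there, beside 0.937% of all genes, and 5 had an unadjusted p under 0.05, beside 10.7%. The other slide with an earlier and a late serum brain held 1 mouse each of 1.5 and 24 h. There 9 of 10 genes were lower in the 24 h mouse (median -0.50), and only Npas4 was higher. The mean z-score of the 10 genes was 1.81 and 0.19 in the serum mice of 18 h, against -0.04 and -0.2 in those of 24 h.

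Other genes of the same response were examined in 4 lists. Of 15 measured transcription factor relatives, 5 passed the test of any difference between times in oleic acid mice and 5 in serum mice, and of 18 measured rapid-response genes 6 and 4 did. None of 13 synaptic effectors passed in either treatment by limma, with 2 at an unadjusted p under 0.05 in oleic acid mice, beside 26.3% of all genes, and 3 in serum mice, beside 34.6%. Of 14 upstream regulators 1 passed in oleic acid mice and 0 in serum mice, with 2 and 5 at an unadjusted p under 0.05 beside the same shares. Over all genes 7.08% passed in oleic acid mice and 10.4% in serum mice. At 18 to 24 h against 3 to 4 h, 3 of 15 relatives and 5 of 18 rapid-response genes fell in oleic acid mice, beside 3.84% of all genes, with list medians of -0.14 and -0.21. In serum mice 3 and 2 fell, beside 2.08%, with list medians of 0.08 and -0.20. The median of all genes was -0.044 in oleic acid mice and 0.012 in serum mice. No gene of these lists passed an oleic acid minus serum test. The one nearest to it at 1.5 h was Klf2, a flow-responsive factor of endothelium, at -1.1 ± 0.27 (adjusted p = 0.517, limma).

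Maff, a small Maf transcription factor, had the lowest adjusted p of the relatives at 18 to 24 h against 3 to 4 h in both treatments. In oleic acid mice it lay at -3.28, -3.04 and -2.33 at 1 h, -3.27, -2.91 and -2.61 at 1.5 h, -1.53, -1.23 and -1.21 at 3 h, -2.40, -2.62 and -1.48 at 4 h, -4.24 and -4.17 at 18 h, and -3.98, -4.46 and -4.24 at 24 h. In serum mice it lay at -3.87, -3.36 and -2.97 at 1 h, -3.04, -2.98 and -2.77 at 1.5 h, -2.26 and -1.79 at 3 h, -2.24 and -0.73 at 4 h, -3.58 and -3.69 at 18 h, and -4.45 and -4.61 at 24 h. Every brain of 3 and 4 h was above every brain of 18 and 24 h in both treatments.

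Maff fell by 2.47 ± 0.24 at 18 to 24 h below 3 to 4 h in oleic acid mice (adjusted p = 3.14e-06, limma) and by 2.33 ± 0.28 in serum mice (adjusted p = 5.16e-05, limma), beside 5.32% and 3.88% of all genes past the test. It had risen at 3 to 4 h over 1 to 1.5 h by 1.16 ± 0.23 in oleic acid mice (adjusted p = 0.0141, limma) and by 1.41 ± 0.26 in serum mice (adjusted p = 0.00652, limma), beside 1.12% and 2.14%. Both late falls passed when each brain was left out in turn, while the serum rise was 1.04 (adjusted p = 0.0541, limma) without serum 4 h replicate 2. With slide as a fixed block the late serum fall still passed (-2.12, adjusted p = 0.0217, limma) and the oleic acid fall did not. Within the slide that held serum mice of 4 and 18 h, Maff at 18 h differed from 4 h by -2.15 ± 0.40 (adjusted p = 0.00813, limma). Without serum 4 h replicate 2 this difference was -1.4 (adjusted p = 0.131, limma), and the adjusted p was 0.0853 without serum 18 h replicate 1 and 0.0738 without serum 18 h replicate 2.

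Genes of both the relatives and the rapid-response list also fell at 18 to 24 h below 3 to 4 h. Atf3, a stress-induced factor of the ATF family, fell by 1.35 ± 0.22 in oleic acid mice (adjusted p = 0.000879, limma) and by 1.24 ± 0.26 in serum mice (adjusted p = 0.00738, limma). Csrnp1, a nuclear protein induced by AXIN1, fell by 1.16 ± 0.19 in oleic acid mice (adjusted p = 0.000949, limma) and by 1.03 ± 0.22 in serum mice (adjusted p = 0.00997, limma; 0.0655 without serum 4 h replicate 2 and 0.0649 without serum 18 h replicate 2). Of the rapid-response list, in oleic acid mice the clock gene Per1 fell by 1.11 ± 0.16 (adjusted p = 0.000268, limma) and the phosphatase gene Dusp2 by 0.77 ± 0.13 (adjusted p = 0.000904, limma). Without serum 4 h replicate 2 or 18 h replicate 2 the serum call for Csrnp1 was thus lost, and with slide as a fixed block none of these 4 genes passed.

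Gadd45g, a growth arrest and DNA damage gene of the rapid-response list, was higher at the middle times than before and after. It rose at 3 to 4 h over 1 to 1.5 h by 0.79 ± 0.13 in oleic acid mice (adjusted p = 0.00406, limma) and by 0.64 ± 0.14 in serum mice (adjusted p = 0.0199, limma). It fell at 18 to 24 h below 3 to 4 h by 0.66 ± 0.13 in oleic acid mice (adjusted p = 0.00558, limma; 0.0687 without oleic acid 18 h replicate 1) and by 0.61 ± 0.16 in serum mice (adjusted p = 0.0293, limma). The serum rise was lost, at adjusted p-values up to 0.113, without replicate 2 of 1.5 h, replicate 2 of 3 h or either replicate of 4 h. The serum fall was lost, at adjusted p-values up to 0.13, without replicate 2 of 3 h, either replicate of 4 h, replicate 2 of 18 h or either replicate of 24 h. None of the 4 changes passed with slide as a fixed block.

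Some related genes went the other way or followed another course. Inhba, the activin beta A subunit, rose at 18 to 24 h over 3 to 4 h by 0.68 ± 0.18 in oleic acid mice (adjusted p = 0.0266, limma) and by 0.83 ± 0.20 in serum mice (adjusted p = 0.0221, limma). Its oleic acid call was lost, at adjusted p-values up to 0.121, without replicate 2 of 3 h, replicate 1 of 4 h, either replicate of 18 h or replicate 2 of 24 h. Its serum call was lost, at adjusted p-values up to 0.154, without replicate 2 of 3 h, replicate 1 of 4 h, replicate 1 of 18 h or either replicate of 24 h. Jun fell by 1.02 ± 0.19 at 18 to 24 h below 1 to 1.5 h in serum mice (adjusted p = 0.00489, limma). Cyr61, a matrix-associated growth factor gene, fell by 1.47 ± 0.25 in oleic acid mice (adjusted p = 0.0074, limma; 0.0587 without oleic acid 18 h replicate 2) and by 1.25 ± 0.26 in serum mice (adjusted p = 0.0113, limma; 0.0583 without serum 18 h replicate 2 and 0.0553 without serum 24 h replicate 2). None of these calls for Inhba, Jun and Cyr61 passed with slide as a fixed block.

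Over all measured genes, those whose level was most like the mean of the 10 across the 31 brains were Egr4 (r = 0.86), Dusp6 (0.79), Nr4a3 (0.77), Trib1 (0.75), Dnajb5 (0.75), Rnf39 (0.70), Fosl2 (0.69) and Masp2 (0.68). Of these 8, 6 were among the 8 nearest when deviations from slide means were used and 3 when deviations from group means were used. For single genes the nearest were Egr2 for Fos and for Egr1 (0.89 and 0.83), Fos for Egr2 (0.89), Tnfrsf25 for Arc (0.87) and Hspa1a for Npas4 (0.80). They were Trib1 for Nr4a1 (0.80), Mapk11 for Fosb (0.84), Raver2 for Bdnf (0.91), NEAT2 for Dusp1 (0.79) and Dcdc2b for Junb (0.69). These correlations were picked as the highest among 25281 genes and describe the 31 brains.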

How the data were processed

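Per the labels' protocols, 200 ng of brain RNA per mouse was labelled with Cy3 and hybridised to single-colour Agilent arrays. Per the file headers and the submitters' processing notes, the authors read the scans with the software Feature Extraction, version 10.5.1.1. The deposited array files hold, for each spot, a processed intensity after background subtraction with no scaling between arrays, a mean and a background intensity, and flags for spots above background or non-uniform. A deposited table of log2 values also exists: it correlated at 0.9977 to 0.9998 with the log2 mean intensity of each array, its column medians were 6.1283 to 6.1285, and its normalization is not given in the sources used here. It served as an alternative.

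Here the log2 processed intensity minus the log2 of the array's 75th percentile was used. Non-uniform spots were set to missing, spots of a probe were averaged, and a probe was used if some group of the 12 had it well above background on each of its arrays and no array lacked it (35499 of 55681 probes). The probe with the highest mean stood for a gene, giving 25281 genes or unnamed transcripts. The 75th percentile of intensity ran from 306 to 813, and the number of arrays limits the precision. Limma 3.58.1 in R 4.3.3 fitted 12 group means (19 residual degrees of freedom), with moderated standard errors and Benjamini-Hochberg adjustment over all genes in each of 21 comparisons, counting an adjusted p under 0.05 as passed. Permutation tests of correlations were 2-sided. The script was tested on simulated data.

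The 10 genes, the 4 related lists and the cell type markers were chosen with earlier results of these data known. Named were the 10 genes everywhere; up to 5 genes per related list and comparison with the smallest adjusted p among those past the test, or else the 2 with the smallest unadjusted p; the 8 genes nearest in pattern to the mean of the 10 and the nearest gene to each, clone identifiers passed over; and the markers. Only some of the genes so named are described. Promoter windows came from RefSeq, where 8 of the 10 genes were matched, all but Arc and Egr1. The alternatives tried were normexp correction (offset 50), quantile or median scaling, the deposited table, other filters and probe rules, slide or scan date as a block, a replicate block, array weights, other variance options, fits to 1 time, and leaving out brains.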

Additional observations from a re-analysis of the deposited data

Results flagged for a closer look

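For 5 of the genes the oleic acid and serum groups did not overlap at 2 or more times, with differences of opposite sign, as for 25.9% of all genes. Fos differed by -0.75 at 1.5 h, 0.57 at 3 h and 0.42 at 24 h. Egr1 differed by 0.49 at 1 h, 0.60 at 3 h and -0.90 at 18 h. Arc differed by -1.12 at 1.5 h and 0.40 at 4 h, Dusp1 by -0.89 at 1.5 h and 0.40 at 3 h, and Bdnf by -0.37 at 1.5 h, 0.29 at 3 h, -0.50 at 18 h and 0.21 at 24 h. All are oleic acid minus serum on the log2 scale, and groups of 2 or 3 mice fail to overlap easily. The F-test of any difference between the 6 times had unadjusted p-values of 0.0235 for Fos, 0.0159 for Egr1, 0.23 for Arc, 0.0252 for Dusp1 and 0.0645 for Bdnf by limma, and an adjusted p of at least 0.837 for each of the 5, so none passed. The difference between any single pair of times was not tested.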

How the results depend on the processing

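Of 5860 values of the 10 genes under other settings, 5540 kept their sign and their side of the threshold, 43 passed where the reported value had not, 21 no longer passed, 256 that never passed changed sign, and 0 that passed changed sign. Nearly all of these values had not passed as reported, so the share kept says little about the calls that did pass. Each of the 21 lost was an Npas4 value in serum mice. The number of the 10 genes past the test in oleic acid mice at any time was 0 as reported, 1 with quantile scaling, the deposited table or the trend and robust variance options, 2 with array weights and 0 to 1 with each brain left out. In serum mice at any time it was 1 as reported, 2 with quantile scaling or the trend and robust options, 3 with the deposited table, 5 with array weights, 0 with slide as a fixed or random block and 0 to 3 with each brain left out (0 without serum 18 h replicate 1, 3 without serum 4 h replicate 2). For 18 to 24 h against 1 to 1.5 h in oleic acid mice it was 0 as reported, 1 with quantile scaling, the deposited table, scan date as a block or the trend and robust options, 2 with array weights and 0 to 1 with each brain left out. The same comparison in serum mice gave 1 as reported, 0 with slide as a fixed or random block, 3 with array weights and 0 to 1 with each brain left out. For 18 to 24 h against 3 to 4 h in serum mice it was 1 as reported, 2 with quantile scaling or the deposited table, 0 with median scaling, no filter, slide as a fixed or random block, array weights, the replicate block or without the 3 brains high in Prl, and 0 to 3 with each brain left out. In oleic acid mice this count was 0 as reported and 0 to 1 with each brain left out. For serum mice at 18 h against 4 h it was 0 as reported, 1 with the deposited table or without the 4 brains lowest in Gabra6, and 0 to 1 with each brain left out. For oleic acid minus serum at 1.5 h it was 0 as reported and 5 with array weights (Fos, Junb, Arc, Nr4a1 and Dusp1). Of the 8 genes nearest in pattern, 3 were shared when deviations from group means were used, an alternative added after the data were seen. The cause of these changes was not tested.

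Same-numbered mice of the 2 treatments did not deviate together (correlations of -0.62 to 0.39 over the times), so the numbers were not taken as pairs. With the replicate number as a block, Npas4 differed in serum mice by 1.05 (adjusted p = 0.0106, limma) at 18 to 24 h over 1 to 1.5 h and by 0.83 (adjusted p = 0.0518, limma) over 3 to 4 h. For related genes, all alternatives were added after the data were seen: of 55 values past the test, giving 1547 values under other settings, 1158 still passed and 388 did not, and Plk2 in oleic acid mice at 18 to 24 h against 3 to 4 h reversed to 0.10 with slide as a fixed block, against -0.57 as reported. With slide as a block 96 of 110 no longer passed. Signal over background does not limit the 10 genes, which were above it on every array; groups of 2 or 3 mice and slides that follow time do.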
